A study of Rattus norvegicus with 2 samples.

Results

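The insulin-like growth factor (IGF) axis was followed here through 10 genes: the ligands Igf1 and Igf2, the receptors Igf1r and Igf2r, and the binding proteins Igfbp2 to Igfbp7. They are 10 of the 16846 gene symbols of the deposited table, and all 10 were among the 10365 genes with a mean of at least 1 read per 1000000 (RPM). They were chosen by gene family with the measured ratios of this same comparison already known, so every ratio below is a description. Total RNA was extracted and sequenced by strand from cultures of rat ventricular cells taken at postnatal day 0 and plated as cardiomyocytes after 2 h on uncoated dishes, with a stated purity above 90%. The control library came from cultures given an empty adeno-associated virus (AAV) per the treatment label, or mock-transduced per the protocol, and the anti-miR library from cultures given AAV2/9 with short hairpin RNAs against miR-99/100 and let-7 (let-7a/c in the protocol), with 7 days stated for the transduction. The labels name no promoter for the hairpins. With 1 library per group, no difference has a replicate check and only counting error is known.

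IGF1 and IGF2 are secreted growth factors that act through the tyrosine kinase receptor IGF1R, which recruits adaptors and switches on the phosphoinositide 3-kinase, AKT and MAP kinase routes. IGF2R, the cation-independent mannose 6-phosphate receptor, takes up IGF2 for degradation and also carries lysosomal enzymes. The binding proteins hold the ligands outside the cell, extending their life, limiting or aiding their access to the receptor, until proteases release them. In the heart this axis is known for supporting growth and survival of cardiomyocytes, and fibroblasts and macrophages are among the sources of IGF1.

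Members of the let-7 and miR-99/100 families, named in the treatment, are shown first, because Igf1r is a commonly cited target of both families. No sequence of rno-miR-99a-5p was used here, and miR-99b is shown for its seed, although the labels do not say which miR-99 was aimed at. The sequences are from RefSeq (build GRCr8), 5′ to 3′, with the seed (bases 2 to 8) in capitals.
rno-let-7a-5p: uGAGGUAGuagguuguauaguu
rno-let-7c-5p: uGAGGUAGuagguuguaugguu
rno-miR-100-5p: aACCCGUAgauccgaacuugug
rno-miR-99b-5p: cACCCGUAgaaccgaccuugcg
Let-7a and let-7c share 1 seed, and miR-100 and miR-99b share another. The deposited reads are over gene exons, and the level of the mature microRNAs in these cultures was not analysed here.

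Reads on genes numbered 16031780 in the control and 14815846 with the anti-miRs. The label of cardiomyocyte was checked against 14 markers, of which 13 were measured: they summed to only 250.6 RPM in the control and 287.2 RPM with the anti-miRs, Myl7 had 0 reads in both, and Tnni3, Myl3, Ryr2 and Myh6 had 0 in the control and 5 to 23 with the anti-miRs. Tnnt2, of cardiac troponin T, was the most abundant of them. The 12 fibroblast markers summed to 142959 and 143600 RPM, led by Col1a1, and the 12 measured macrophage markers to 7618 and 8281 RPM, led by Lyz2. The 8 measured endothelial markers summed to 43.04 and 64.32 RPM, with Emcn at 0 in both libraries and Cdh5 at 0 and 1 reads. The 6 measured epicardial markers summed to 96.50 and 101.2 RPM, and the 6 measured smooth muscle and pericyte markers to 2636 and 2577 RPM, with Rgs5 at 0 and 1 reads. The markers thus went against the labelled cell type, and the cultures are called ventricular cells here. In bulk RNA, fewer cells of a type and less RNA per cell cannot be told apart, and which cells gave the IGF axis reads was not tested.

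All 6 binding protein genes had a higher level in the anti-miR library, but by very different amounts. Igfbp2, Igfbp5 and Igfbp6, the scarcest 3 of the 6, stood 3.85-fold to 4.29-fold above the control, while Igfbp3 and Igfbp4 were 1.34-fold and 1.29-fold above it and Igfbp7 1.04-fold. Igf1 and Igf2r were slightly higher in the anti-miR library, and Igf2 and Igf1r lower, each by less than 1.5-fold in ratio. Thus 3 of the 10 genes were at least 2-fold higher, against 4.85% of all genes above the floor, and 0 were at least 2-fold lower, against 3.56%. At 1.5-fold the counts were again 3 and 0, against 10.8% and 8.56% of all genes. By an exact binomial test on the reads, which compares these libraries and not the conditions, 8 were higher and 2 lower, against 31.7% and 26.4% of all genes. Because these genes were chosen with the ratios of this comparison known, nothing is read from those counts. The median log2 ratio was 0.33 over the 10 genes and 0.03 over all 10365.

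**Figure D1:**
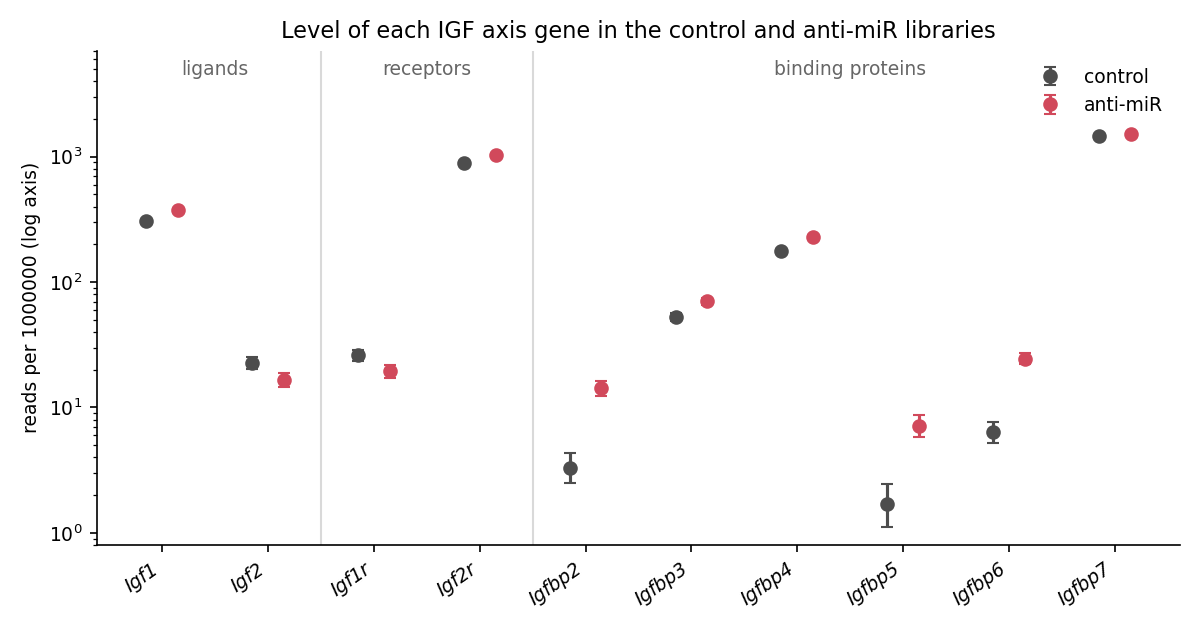
Level of each gene in the control (grey) and anti-miR (red) library in reads per 1000000 on a log axis; bars are exact Poisson 95% intervals and cover counting error only. The intervals of Igfbp2, Igfbp5 and Igfbp6 lie far apart between the libraries, while Igfbp7 stands at 1465 and 1525.

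Igf1 (chromosome 7, 24531669 to 24605742 on build rn4, plus strand), the main growth factor ligand, had 4890 reads in the control and 5517 with the anti-miRs, or 305.0 and 372.4 RPM. The anti-miR library was the higher one. The ratio was 1.22 with an exact Clopper-Pearson 95% counting interval of 1.17 to 1.27, and the log2 ratio 0.29. To show how far genes of the same abundance spread between these libraries, each log2 ratio was set beside the central 95% of the 500 genes nearest in mean level. For Igf1 that range ran from -0.35 to 0.33, so its ratio lay inside.

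Igf2 (chromosome 1, 202906623 to 202915162, minus strand), a fetal growth factor, had 364 reads in the control and 246 with the anti-miRs, or 22.70 and 16.60 RPM. The control was the higher one: the ratio was 0.731, with counting limits of 0.620 and 0.862. On the log2 scale this is -0.45, and genes of like level ran from -0.88 to 0.84. The nearest gene of any level on one side, H19, an imprinted noncoding RNA that shares regulatory elements with Igf2, had 36.05 and 28.82 RPM. Its ratio of 0.799 (0.704 to 0.907) was likewise below 1; H19 was chosen after its values were seen. On the other side the insulin gene Ins2 had 0 reads in both libraries, and so had the microRNA gene Mir483, which lies within Igf2. A count of 0 allows up to 0.187 RPM in the control and 0.202 RPM with the anti-miRs.

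Igf1r (chromosome 1, 122704974 to 122990002, plus strand), the signalling receptor, had 418 reads in the control and 288 with the anti-miRs, which came to 5.59 and 4.17 reads per kilobase per 1000000 (RPKM). Its ratio of 0.746 (0.639 to 0.868) was close to that of Igf2, the counting intervals of the 2 ratios overlapping. The log2 ratio of -0.42 lay inside the like-level range of -0.74 to 0.98, and 49 of the 500 genes of like level had a ratio as low. The control was the higher library for this receptor.

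Igf2r (chromosome 1, 42253273 to 42341646, plus strand), the clearance and lysosomal sorting receptor, had 898.1 RPM in the control and 1035 RPM with the anti-miRs, from 14398 and 15341 reads. The ratio of 1.15 (1.13 to 1.18) had a narrow interval, and the log2 ratio of 0.21 lay inside the range of genes of like level, -0.39 to 0.30. With opposite directions of the receptors, the length-corrected level of Igf2r stood 18.4 times above that of Igf1r in the control and 28.4 times with the anti-miRs. For the ligands, the length-corrected level of Igf1 stood 32.2 and 53.8 times above that of Igf2.

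Igfbp2 (chromosome 9, 71966877 to 71994208, plus strand), a carrier that prefers IGF2, had 53 reads in the control and 210 with the anti-miRs, or 3.31 and 14.17 RPM. The anti-miR library was clearly the higher one by counting error. The ratio was 4.29 (3.16 to 5.91) and the log2 ratio 2.07, above its like-level range of -1.32 to 1.26, and 0 of the 500 genes of like level had a ratio as high.

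Igfbp5 (chromosome 9, 72003637 to 72016263, minus strand), a conserved carrier that binds matrix, had 27 and 106 reads, or 1.68 and 7.15 RPM. Its ratio of 4.25 (2.76 to 6.74) almost equalled that of Igfbp2, but genes this scarce spread widely. The log2 ratio of 2.02 lay at the edge of the like-level range of -1.93 to 2.01, with 14.4% of those 500 genes at least 2-fold higher. With the 200 nearest genes in place of 500 it lay inside the range, whose upper end was then 2.23.

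Igfbp6 (chromosome 7, 140885388 to 140890027, plus strand), a carrier with a marked preference for IGF2, had 102 reads in the control and 363 with the anti-miRs, or 6.36 and 24.50 RPM. The ratio was 3.85 (3.08 to 4.85) and the log2 ratio 1.93, above the like-level range of -0.78 to 0.99. As for Igfbp2, 0 of the 500 genes of like level reached that ratio. The counting intervals of the ratios of Igfbp2, Igfbp5 and Igfbp6 overlapped one another and were separate from those of the other 7 genes.

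**Figure D2:**
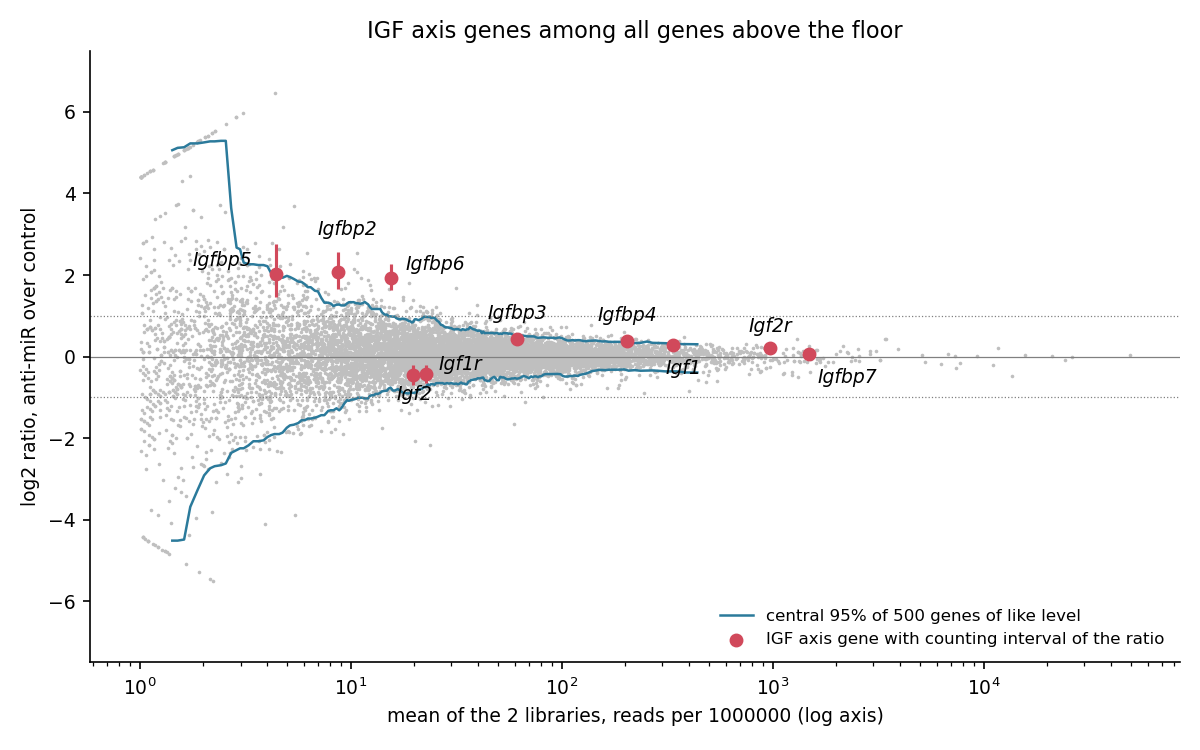
Log2 ratio of the anti-miR over the control library against mean level (log axis) for the 10365 genes above the floor (grey), with the 10 IGF axis genes in red and vertical bars for their counting intervals; blue lines, drawn where equal numbers of genes lie on each side, bound the central 95% of 500 genes of like level and dotted lines mark 2-fold. Igfbp2 and Igfbp6 lie above the upper line at 2.07 and 1.93, Igfbp5 lies on it at 2.02, and Igf2 and Igf1r lie between the lines.

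Igfbp3 (chromosome 14, 87959153 to 87967171, minus strand), the main carrier of IGFs in blood, had 842 and 1043 reads, or 52.52 RPM in the control and 70.40 RPM with the anti-miRs. The ratio was 1.34 (1.22 to 1.47) and the log2 ratio 0.42, inside the like-level range of -0.54 to 0.53. Its close neighbour Igfbp1, which lies 3863 bases away and is not among the 10 genes, had 0 reads in both libraries. Igfbp1 is typical of liver and responds to insulin.

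Igfbp4 (chromosome 10, 87822429 to 87834315, plus strand), a carrier that mainly restrains IGF action, had 2837 and 3394 reads, or 177.0 and 229.1 RPM. The ratio was 1.29 (1.23 to 1.36), overlapping in interval with that of Igfbp3. Its log2 ratio of 0.37 lay just above the like-level range of -0.32 to 0.36, the range being narrow at this abundance.

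Igfbp7 (chromosome 14, 33010198 to 33070054, plus strand), a matrix protein that binds IGFs weakly, was the most abundant of the 10 genes, with 23486 reads in the control and 22589 with the anti-miRs. This came to 1465 and 1525 RPM, a ratio of 1.04 (1.02 to 1.06), nearly level between the libraries. Its log2 ratio of 0.06 lay well inside the range of -0.39 to 0.30. Polr2b, of RNA polymerase II, overlaps it on the opposite strand with 96.87 and 90.11 RPM, and the deposited counts were made by strand per the file headers. Counting the genes outside their like-level ranges, 4 of the 10 lay above (Igfbp2, Igfbp4, Igfbp5 and Igfbp6), against 2.54% of all genes, and 0 below, against 2.78%.

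Corrected for transcript length, the levels formed an order that the libraries shared at the top and not at the bottom. In both, Igfbp7 (1335 and 1390 RPKM) was followed by Igf1 (162.9 and 198.9), Igf2r (102.8 and 118.5), Igfbp4 (82.00 and 106.2) and Igfbp3 (21.93 and 29.39). In the control Igfbp6 came next at 7.38 RPKM, then Igf1r at 5.59, Igf2 at 5.06, Igfbp2 at 2.57 and Igfbp5 at 1.04. The counting intervals of Igfbp6 and Igf1r overlapped there, and so did those of Igf1r and Igf2. In the anti-miR library Igfbp6 at 28.42 RPKM was not separate from Igfbp3 by counting error. Igfbp2 at 11.02 now stood above both Igf1r and Igf2, and Igfbp5 at 4.42 had an interval overlapping that of Igf1r at 4.17, which in turn overlapped that of Igf2 at 3.70. Among all genes above the floor, the length-corrected level of Igfbp6 stood above 33.5% in the control and 71.9% with the anti-miRs, and that of Igfbp2 above 14.5% and 44.1%.

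The make-up of the binding protein message differed accordingly. Igfbp7 alone gave 92.1% of the summed RPKM of the 6 binding proteins in the control and 88.6% with the anti-miRs. Without it, Igfbp4 gave 71.4% and 59.2% and Igfbp3 19.1% and 16.4%, both smaller shares in the anti-miR library. Igfbp6 gave 6.42% and 15.8%, Igfbp2 2.24% and 6.14%, and Igfbp5 0.905% and 2.46%. In reads, these 5 genes together had 240.8 RPM in the control and 345.3 RPM with the anti-miRs, a ratio of 1.43 (1.37 to 1.5). Of that difference of 104.5 RPM, Igfbp3 and Igfbp4 contributed 70.0 RPM, and Igfbp2, Igfbp5 and Igfbp6 34.5 RPM, although the latter 3 had the larger ratios. The ligands together stood at 327.7 and 389.0 RPM, a ratio of 1.19 (1.14 to 1.23).

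**Figure D3:**
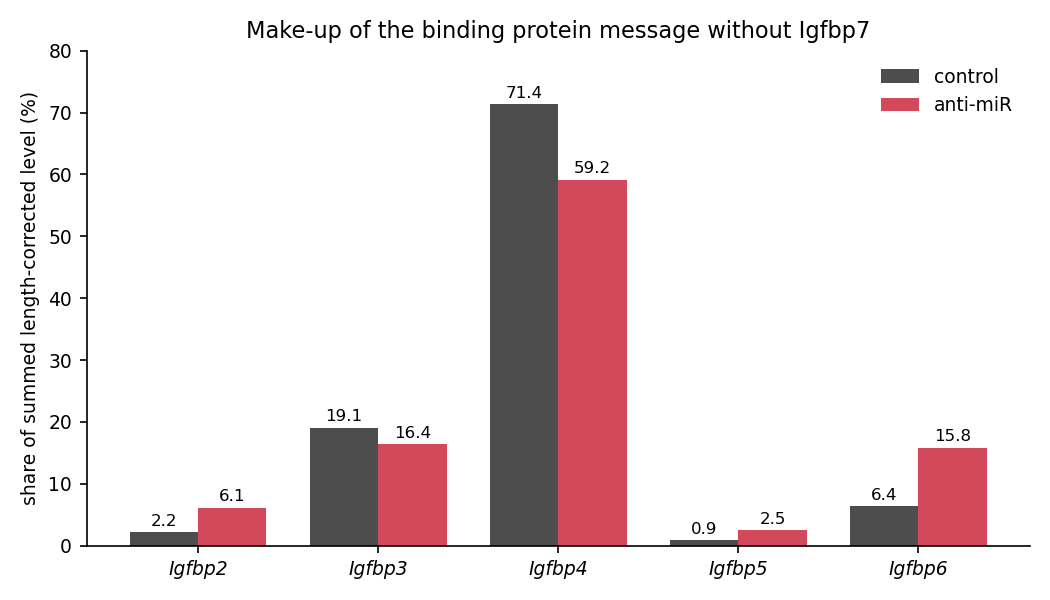
Share of each gene in the summed length-corrected level (RPKM) of Igfbp2 to Igfbp6 in the control (grey) and anti-miR (red) library, in percent. Igfbp4 holds 71.4% and 59.2%, and Igfbp6 6.42% and 15.8%.

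The position of the genes had no part in their choice. Igfbp2 and Igfbp5 are direct neighbours on chromosome 9, their ends facing each other across a gap of 9428 bases, and their ratios were 4.29 and 4.25. Beyond the pair, the nearest gene above the floor next to Igfbp2 was Smarcal1, a DNA annealing helicase gene, with 32.37 RPM in the control and 40.83 RPM with the anti-miRs. Next to Igfbp5 it was Tns1, a focal adhesion gene 1219292 bases away, with 275.2 and 312.4 RPM. Neither neighbour was 1.5-fold apart. Of the 20 other genes above the floor within 2 Mb of the start of Igfbp2, 1 was at least 2-fold higher, Bard1, with 38 and 98 reads. Over all chromosomes, 2920 neighbouring pairs above the floor had a gap of at most 9428 bases, and in 8 of them, this pair included, both genes were at least 2-fold higher. Ends faced each other in 951 of those pairs, and in 4 of these both genes were at least 2-fold higher; these counts were added after the values of the pair were seen.

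**Figure D4:**
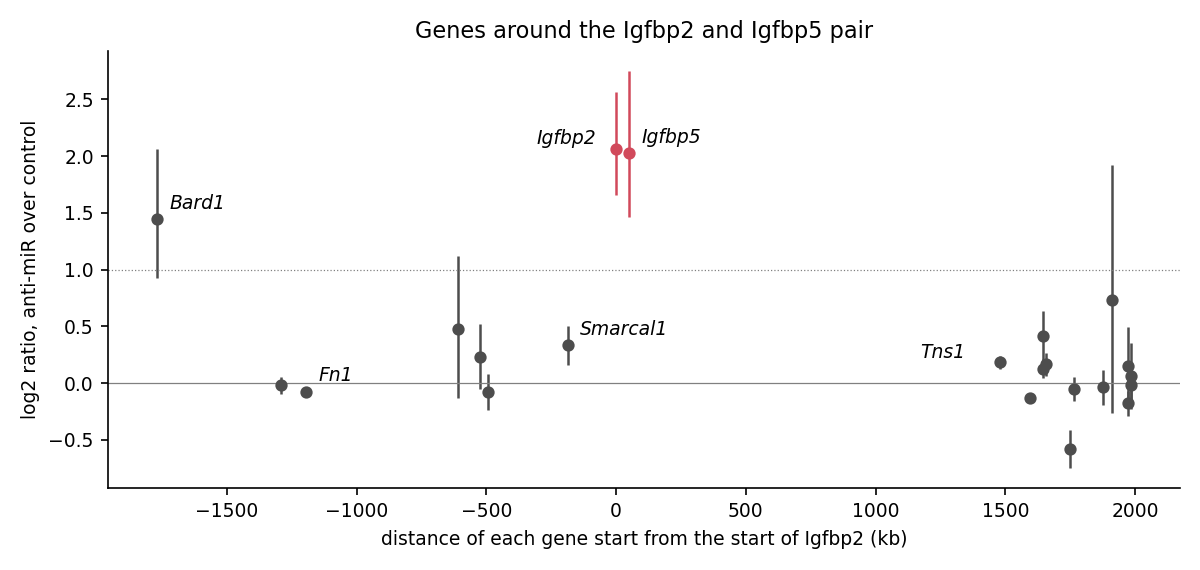
Log2 ratio of the anti-miR over the control library for genes above the floor within 2 Mb of the Igfbp2 start, by distance of each gene start in kilobases; vertical bars are counting intervals and the dotted line marks 2-fold. Igfbp2 and Igfbp5 (red) stand at 2.07 and 2.02, Smarcal1 and Tns1 on either side at 0.33 and 0.18.

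Igfbp6 lies on another chromosome. Its nearest neighbours above the floor were Spryd3, with 68.11 and 57.84 RPM, and Csad, of taurine synthesis, with 26.01 RPM in the control and 45.42 RPM with the anti-miRs. Csad thus had a ratio of 1.75 (1.54 to 1.98), on the opposite strand, 28036 bases away. The gene directly behind Igfbp6 on its own strand, Soat2, had 0 reads in both libraries.

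Because Igfbp2, Igfbp5 and Igfbp6 stood apart from the rest, the 250 bases before their starts are shown. They are from RefSeq on build GRCr8, which is not the build of the deposited table, and all 10 genes had an entry. The windows are chr9:81864561-81864810 on the plus strand, chr9:81914188-81914437 on the minus strand and chr7:135154669-135154918 on the plus strand. Each is printed 5′ to 3′ on the strand of its gene, with capitals for matches to the motifs named below.
Igfbp2: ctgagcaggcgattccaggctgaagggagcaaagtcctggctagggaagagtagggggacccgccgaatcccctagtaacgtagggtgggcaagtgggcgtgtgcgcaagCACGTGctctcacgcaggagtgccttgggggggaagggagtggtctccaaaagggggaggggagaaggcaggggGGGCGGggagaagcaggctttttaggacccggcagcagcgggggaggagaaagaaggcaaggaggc
Igfbp5: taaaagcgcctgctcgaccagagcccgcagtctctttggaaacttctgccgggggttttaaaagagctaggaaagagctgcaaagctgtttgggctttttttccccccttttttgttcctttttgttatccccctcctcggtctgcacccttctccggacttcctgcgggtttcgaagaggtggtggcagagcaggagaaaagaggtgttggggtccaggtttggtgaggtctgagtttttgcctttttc
Igfbp6: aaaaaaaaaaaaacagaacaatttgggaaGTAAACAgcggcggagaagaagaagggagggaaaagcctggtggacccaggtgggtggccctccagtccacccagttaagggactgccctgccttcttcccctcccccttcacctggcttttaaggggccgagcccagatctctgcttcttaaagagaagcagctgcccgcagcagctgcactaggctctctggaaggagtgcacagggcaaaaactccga
Both strands were searched for the letters of 5 common promoter motifs. The letters TATAAA, of the classical box bound by the general transcription machinery, are found in 12.9% of 33465 windows of this length. The letters GGGCGG, recognised by Sp family factors, are found in 30.5% of these windows. The letters CCAAT, recognised by the factor NF-Y, are found in 34.0% of these windows. The E-box letters CACGTG, recognised by Myc and related factors, are found in 5.59% of these windows. The forkhead letters TGTTTAC, recognised by FoxO and related factors, are found in 3.22% of these windows. None of these strings is contained in another. The Igfbp2 window holds the E-box letters once and the Sp letters once, without overlap. The Igfbp6 window holds the forkhead letters once, on the other strand, where they read GTAAACA. The Igfbp5 window holds none of the 5. No searched motif was thus shared by the 3 windows. Their share of G and C was 64.0%, 51.6% and 54.8%, against a median of 51.2% over all windows. They hold 11, 8 and 5 CG pairs against a median of 5. Among the other IGF axis genes, the E-box letters also stood before Igf1r and Igf2r. The Sp letters stood before Igf1r, Igf2r, Igfbp7 and in a window of Igf2. The letters TATAAA stood before Igfbp4, and the CCAAT and forkhead letters before none. Their share of G and C ran from 46.8% for Igf1 to 79.6% for Igf1r.

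The wider pathway was read in 7 lists, whose counts stand against 4.85% of all genes at least 2-fold higher and 3.56% lower. Of the other carriers, ligands and receptors, 8 of 9 listed were measured and 2 were above the floor: the insulin receptor gene Insr, with 29.00 and 32.60 RPM, and Lrp1, a large endocytic receptor, with 2765 and 3050 RPM. Insrr, Ins1 and Igfbpl1 had 0 reads in both libraries. Igfals, of the acid-labile subunit that joins IGF complexes in blood, had 13 reads in the control and 0 with the anti-miRs, so that counting error allows a ratio of up to 0.355.

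The related secreted proteins showed no shared shift, as 1 of 7 above the floor was at least 2-fold lower, 0 were higher and the median log2 ratio was -0.14. Esm1, of an endothelial proteoglycan, was the lower one, with 56 and 9 reads and a log2 ratio of -2.34, within the -2.82 to 5.25 of genes of like level. The matricellular genes Ctgf and Cyr61 had 5523 and 5026 RPM and 676.3 and 719.2 RPM. Among 13 genes for proteases of the binding proteins, their inhibitors and ligand processing, 3 were at least 2-fold lower and 1 was higher, around a median of -0.04, beside 3.56% of all genes lower and 4.85% higher. With a pseudocount of 1 RPM in place of 0.1, 1 was lower, and with a floor of 10 RPM, 0 were lower and 0 higher.

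Mmp9, a gelatinase, was the lowest of the proteases, with 165 reads in the control and 9 with the anti-miRs. Its log2 ratio of -3.88 lay below its like-level range of -1.56 to 1.77. The serine protease gene Htra4 had 27 and 7 reads. Stc1 and Stc2 encode stanniocalcins, which inhibit the binding protein protease PAPP-A, and they differed in opposite directions: Stc1 had 79 and 34 reads and Stc2 had 33 and 80. The log2 ratios were -1.07 and 1.35, within the spread of genes of like level (-2.08 to 2.29 and -2.05 to 2.26). Pappa itself, chosen after its values were seen, had 35.99 and 45.02 RPM, and the most abundant of the list, Mmp2, had 3302 and 3131 RPM.

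Receptor adaptors and kinases leaned to the anti-miR library by small amounts. All 40 measured genes were above the floor, 35 had a positive log2 ratio, against 53.3% of all genes, and the median was 0.14. None was at least 2-fold apart. With TMM scaling 31 of the 40 and 50.3% of all genes were positive. Socs3, a feedback inhibitor of cytokine and insulin signalling, had the highest ratio, with 188 and 333 reads and a log2 ratio of 0.93, just above its range of -0.84 to 0.89. Pdpk1, the kinase that activates AKT, was lowest, with 23.27 and 17.75 RPM, and the ubiquitin ligase gene Nedd4 was the most abundant, with 1533 and 1709 RPM.

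Targets of FoxO factors, which IGF signalling holds out of the nucleus, had a median of 0.04 over 16 genes. None was at least 2-fold apart, and 10 had a positive log2 ratio. Trim63, a muscle ubiquitin ligase, was highest with 19 and 34 reads, Bcl2l11, of the death protein BIM, lowest with 6.99 and 4.99 RPM, and Txnip most abundant with 570.6 and 520.5 RPM. Among 8 regulators of the ligand and receptor messages, 1 was at least 2-fold lower and 0 were higher, around a median of 0.04. The lower one was Igf2bp1, of an RNA-binding protein named for the Igf2 message and a cited let-7 target, with 49 and 7 reads. Its log2 ratio of -2.46 lay inside the wide range of -3.68 to 5.23. Stat5b, which carries the growth hormone signal to Igf1, was highest with 18.96 and 25.18 RPM, and Stat5a, the most abundant by the mean of the libraries, had 32.31 and 37.32 RPM, H19 standing above it in the control.

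The machinery that makes and sorts the mannose 6-phosphate tag, the ligand of Igf2r on lysosomal enzymes, had a median of -0.05 over 9 genes, with none 2-fold apart. M6pr, the other mannose 6-phosphate receptor, was highest, with 199.2 RPM in the control and 219.9 RPM with the anti-miRs, a log2 ratio of 0.14 beside 0.21 for Igf2r. Gnptg, a subunit of the tagging enzyme, was lowest, with 33.00 and 22.81 RPM, and the retromer gene Vps35 was the most abundant, with 267.5 and 290.2 RPM.

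**Figure D5:**
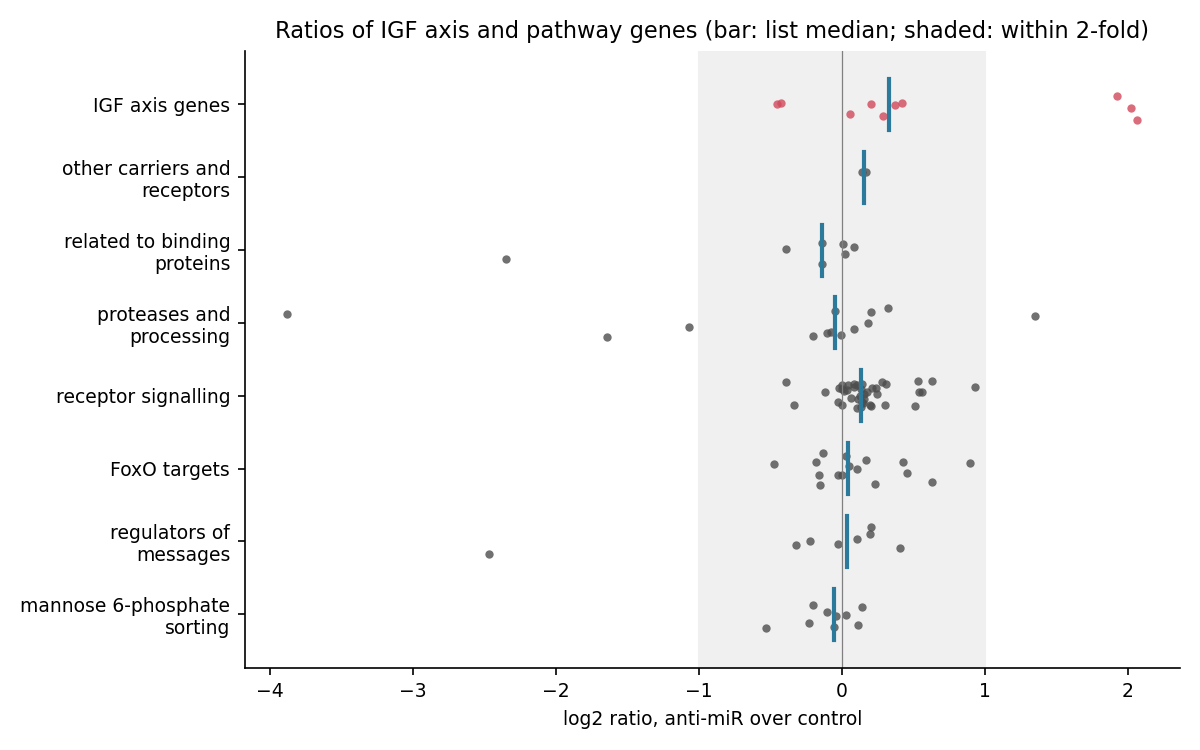
Log2 ratios of the anti-miR over the control library for the 10 IGF axis genes (red) and 7 pathway lists (grey), 1 point per gene above the floor; blue bars are list medians and the shaded band marks genes within 2-fold. The 3 red points at about 2 are Igfbp2, Igfbp5 and Igfbp6, and the 40 signalling genes lie within the band around a median of 0.14.

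The marker lists did not all stand level between these libraries. Medians were 0.21 for 7 cardiomyocyte markers above the floor, 0.03 for 12 fibroblast, -0.05 for 12 macrophage, 0.29 for 6 endothelial, 0.01 for 5 smooth muscle and pericyte and -0.86 for 6 epicardial markers. Of the endothelial markers, Tek (56 and 114 reads) and Pecam1 (0 and 50 reads) were at least 2-fold higher and Vwf (47 and 3 reads) and Plvap (33 and 0 reads) lower. Of the epicardial markers, Upk1b (189 and 56 reads), Krt8 (46 and 15) and Krt19 (32 and 7) were at least 2-fold lower, while Aldh1a2, the most abundant, had 67.49 and 85.65 RPM. The share over all genes is 4.85% at least 2-fold higher and 3.56% lower by that fold. Of these endothelial and epicardial markers at least 2-fold apart, only Upk1b lay outside its like-level range. Its log2 ratio was -1.62, against a range of -1.32 to 1.30. Flt1, the most abundant endothelial marker, was less than 2-fold apart, with 396 reads in the control and 665 with the anti-miRs. Even so, the log2 ratio of Flt1, 0.86, exceeded 0.66, the upper end for genes of its abundance. With a pseudocount of 1 RPM, 2 epicardial markers were lower and 1 endothelial marker higher, and with a floor of 10 RPM none of either list was 2-fold apart. Among the cardiomyocyte markers above the floor, Myl2 was at least 2-fold lower, with 30 and 5 reads. Its log2 ratio of -2.17 lay inside its like-level range of -4.51 to 5.06. Myh7 had the highest ratio of those above the floor, with 99 and 171 reads. Below the floor, Myh6 (0 and 23 reads), Ryr2 (0 and 20), Myl3 (0 and 19) and Tnni3 (0 and 5) were read with the anti-miRs alone. Counting the cardiomyocyte markers with a read in either library, thus without Myl7, 4 were at least 2-fold higher. These are the 4 just named, which enter only through their reads in the anti-miR library. No share over all genes is given without the floor, so nothing is read from this count. The median of the cardiomyocyte markers counted this way was 0.49 in place of 0.21. For the endothelial markers counted this way, without Emcn, the median was 0.74 in place of 0.29. That 0.74 is the log2 ratio of Cdh5, which had 0 and 1 reads. Ddr2 and Dcn bounded the fibroblast list at -0.19 and 0.56, C1qa and Lyz2 the macrophage list at -0.57 and 0.42, and Cnn1 and Des the smooth muscle list at -0.24 and 0.22, where Pdgfrb was the most abundant. The part of these cell types in the ratios of Igfbp2, Igfbp5 and Igfbp6 was not tested.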

How the data were processed

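Strand-specific RNA-seq (TruSeq, from total RNA) was measured in 2 libraries, grouped by the treatment label. Per the file headers, HOMER analyzeRepeats was run over rn4 exons, by strand, with 1 transcript per gene. CASAVA 1.8.2 and STAR 2.2.0c are named per the submitters' processing notes. The deposited unit is a read signal, scaled between libraries. How they were scaled is not stated in the labels or headers. Both columns sum to about 15423813, which is the mean of the 16031780 and 14815846 reads on genes.

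Dividing by the value of 1 read (0.962 and 1.04 deposited units) recovered whole reads: 100% of values up to 400 reads were whole within 0.005. Levels are reads per 1000000 on genes (RPM) or, between genes, RPKM with the deposited lengths. Log2 ratios and counts of genes past a fold use RPM + 0.1, which understates low genes. Ratios and folds of single genes printed without log2 are of RPM. A mean of 1 RPM was the floor. Clopper-Pearson and Poisson 95% intervals, and floors of 3 reads, cover counting error only, because each group has 1 library. Reads lacked molecular identifiers, so reads and not molecules were counted. The exact binomial test was Benjamini-Hochberg adjusted at 0.05. On data simulated with counting error alone, 100% of 4-fold higher genes and 0.069% of unchanged ones were called among 10336 genes. The simulation held no spread between cultures or library preparations, so it gives no rate of false calls for these libraries.

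The genes and lists were chosen with earlier results of these data known. Named were the 10 genes, each list's extremes, most abundant gene and (up to 5) genes 2-fold apart, and expressed neighbours. Genes of like pattern were not sought, since 2 libraries give 1 ratio per gene. Python 3.11.15, scipy 1.17.1 and edgeR 4.0.16 (TMM factors) were used.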

Additional observations from a re-analysis of the deposited data

How the results depend on the processing

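The 10 genes were recomputed with a pseudocount of 1 RPM, median of ratios scaling and TMM scaling. All 30 recomputed log2 ratios stayed inside their counting intervals, and 0 changed sign. TMM and median of ratios scaling moved the log2 ratio of all genes by -0.02 each. The pseudocount of 1 RPM moved Igfbp5 most, by 0.42, to 1.60. Under these 3 settings, with no floor and with a fold of 1.5, 3 of the 10 genes were higher past the fold and 0 lower. At the fold of 1.5 the shares over all genes were 10.8% higher and 8.56% lower. For the other settings, and for a floor of 10 RPM, no share over all genes is given, so nothing is read from those counts. With a floor of 10 RPM, 1 was higher, since Igfbp2 and Igfbp5 lie below that floor, and 2 of the 10 lay above their like-level ranges. The exact binomial test on reads called 8 of the 10 higher and 2 lower at any fold, but it called 31.7% of all genes higher and 26.4% lower. Without length correction, Igfbp2, Igfbp5 and Igfbp6 made up 4.71% (control) and 13.3% (anti-miR) of the binding protein reads without Igfbp7; with it they made up 9.56% and 24.4%. Of 57 recomputed list medians, 2 changed sign (smooth muscle and pericyte under both scalings, to -0.01) and 3 moved by 0.1 or more. With no floor, over genes with a read in either library, cardiomyocyte moved from 0.21 to 0.49 and endothelial from 0.29 to 0.74. With the pseudocount of 1 RPM, epicardial moved from -0.86 to -0.60. With 1 library per group no library could be left out. No paired analysis was possible because each group has 1 library. Depth limits Igfbp5 most, with 27 reads in the control.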
